A study of Mus musculus with 8 samples.

Results

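Contractile and actin cytoskeleton genes were followed here through an experiment on interleukin 6 (IL-6) in fibroblasts cultured from mouse embryos (MEFs). The 40 genes were taken by name from a list, out of 55358 genes in the files: 4 actins, 7 genes for myosin chains or the myosin light-chain kinase, 12 regulators that bind the thin filament, 6 crosslinkers and adhesion proteins, 6 LIM-domain proteins, 2 intermediate filament proteins and 3 transcriptional regulators. The list was chosen with earlier results of these data known. Cells were wild type (WT) or Arid5a-/- (KO), and each genotype was kept for 24 h either without IL-6 or with IL-6 at 100 ng/ml. Each of the 4 groups, written WT, WT + IL-6, KO and KO + IL-6, had 2 libraries (n = 2 throughout). Arid5a encodes an RNA-binding protein known for stabilizing the transcripts of selected inflammatory genes, and the series looked for long non-coding RNAs of this pathway. The labels give no strain, embryo, passage or number of lines, and do not say which part of Arid5a was removed or whether paired libraries stem from different cultures. The p-values below therefore reflect library-to-library spread alone, and that spread may be technical.

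Actin monomers polymerize into filaments, and non-muscle myosin II pulls on them once its regulatory light chain is phosphorylated. Tropomyosins, caldesmon, calponins and transgelins bind along the filament and tune this pull, while alpha-actinins, filamin, vinculin and zyxin bundle filaments and tie them to focal adhesions. In fibroblasts a set of smooth muscle type genes, among them Acta2, Tagln, Cnn1 and Myl9, is known to rise when cells become contractile myofibroblasts. Many genes of the family are transcribed by serum response factor (SRF), which binds the CArG box, an A and T rich stretch between CC and GG, together with cofactors that sense free actin.

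The promoters are shown because the family is known for SRF control. RefSeq windows on GRCm38.p6, from 250 bases before to 50 after an annotated start, were on hand for 33 of the 40 genes. A CArG box was found in 8 of these 33 (24.2%), against 153 of 9872 tested genes with a window (1.55%). Those 8 were the light-chain genes Myl9 and Myl6, the actin gene Actg1, the calponin gene Cnn2, the vinculin gene Vcl, the LIM genes Fhl1 and Fhl2, and Srf itself. The letters CATTCC, known as the core bound by TEAD factors, occurred in 13 of 33 (39.4%) against 14.3% of tested genes, and Vcl held both this and a CArG box. The letters TTCNNNGAA, a form bound by STAT factors, occurred in 0 of 33 against 8.24%. Matches on either strand were taken and could overlap each other. Only exact CArG boxes were counted, with A or T at every place between CC and GG. Near matches, such as ccctatatgg and ccttgtttgg in the Acta2 window, were left out. A match is a run of letters and not a shown binding site. The stretches before the transcribed part of 4 genes follow, 5′ to 3′ in the direction of the gene, with each CArG box in capitals.
Myl9 (chr2:156775214-156775419, plus strand): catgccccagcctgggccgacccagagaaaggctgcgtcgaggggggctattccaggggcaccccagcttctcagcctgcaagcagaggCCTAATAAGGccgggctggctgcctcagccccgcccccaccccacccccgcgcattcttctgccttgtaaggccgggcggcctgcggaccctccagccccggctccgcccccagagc
Actg1 (chr11:120348543-120348745, minus strand): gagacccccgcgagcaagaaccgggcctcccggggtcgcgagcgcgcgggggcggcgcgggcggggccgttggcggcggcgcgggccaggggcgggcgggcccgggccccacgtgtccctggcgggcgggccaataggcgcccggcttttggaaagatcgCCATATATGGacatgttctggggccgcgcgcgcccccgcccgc
Vcl (chr14:20929148-20929397, plus strand): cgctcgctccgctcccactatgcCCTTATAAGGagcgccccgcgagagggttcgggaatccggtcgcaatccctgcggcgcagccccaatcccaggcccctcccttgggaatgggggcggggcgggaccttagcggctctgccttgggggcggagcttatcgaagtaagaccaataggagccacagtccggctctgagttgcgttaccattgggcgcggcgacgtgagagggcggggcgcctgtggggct
Srf (chr17:46556176-46556412, minus strand): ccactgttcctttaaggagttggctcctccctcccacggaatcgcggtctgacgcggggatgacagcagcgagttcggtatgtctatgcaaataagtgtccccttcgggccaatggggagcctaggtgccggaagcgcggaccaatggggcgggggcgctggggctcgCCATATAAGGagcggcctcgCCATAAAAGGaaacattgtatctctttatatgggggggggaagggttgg

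The CArG box began 161 bases before the RefSeq start in Myl9, 90 bases before it in Actg1 and 227 bases before it in Vcl. Srf, whose product binds these boxes, carried a pair of them, beginning 82 and 62 bases before its start. With IL-6 in WT, 5 of the 8 genes with a CArG box passed as lower and 0 as higher, in a comparison in which 7.41% of all 13693 genes tested passed as lower and 8.30% as higher. Of the 22 tested genes with a window that held no exact box, Acta2 among them, 9 passed as lower and 3 as higher. All 4 tested genes with no window in the table (Actb, Tagln, Csrp2 and Tgfb1i1) passed as lower. These counts are a description, and the share of lower genes with and without the box was not tested.

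Values are FPKM, fragments scaled per kilobase of transcript and per library size, so that levels of different genes can be set side by side. The steps between low values implied a depth of 36.3 M to 46.1 M fragments per library. Libraries of a group correlated at 0.993 across genes on the log2 scale, 12570 to 12699 genes reached 1 FPKM, and mitochondrially encoded genes held 1.30 to 2.16% of the summed FPKM. Arid5a itself stood at 18.7 and 15.9 FPKM (WT), 30.9 and 31.0 (WT + IL-6), 5.51 and 6.85 (KO) and 8.47 and 8.15 (KO + IL-6), so KO libraries held it at a lower level and not at 0. Changes are log2 differences of FPKM + 1 ± SE from limma, a linear model fitted to the 13693 genes that reached 1 FPKM in 2 or more libraries. They understate the fold of low genes. A change passed at a Benjamini-Hochberg adjusted p below 0.05 over those genes. Of the 40 genes 34 were tested, and Actg2, Myh11, Lmod1, Synpo2, Des and Myocd lay under this filter.

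Much of the family was lower with IL-6 in WT. Acta2, Tagln and Myl9, the smooth muscle type actin, transgelin and light chain, fell to 36.2%, 46.6% and 45.6% of their untreated means, and Csrp2, a LIM protein of smooth muscle, to 65.8%. On GRCm38 these genes span chr19:34241090-34255590 (Acta2, minus strand), chr9:45929619-45936058 (Tagln, minus strand), chr2:156775420-156781658 (Myl9, plus strand) and chr10:110919789-110939622 (Csrp2, plus strand). In all, 18 of 34 genes passed as lower, 3 passed as higher (Zyx, Tagln2 and Tpm4) and 13 did not pass. Over all genes tested 15.7% passed, 7.41% as lower and 8.30% as higher. The median change of the 34 was -0.23, beside -0.002 over all genes. Because the list was chosen with earlier results of these data known, these shares and medians are a description and no test of the family. In KO at the same dose and time 0 of 34 genes passed, in a comparison that called 0.0219% of all genes, all of them higher (0.0219% higher and 0% lower). Changes that did not pass were not shown to be absent. At an unadjusted p below 0.05, limma gave 1 of the 34 in KO, Smtn, and 1025 of the 13693 genes. The changes in KO ran from -0.17 for Smtn to 0.20 for Cnn1, 26 below 0 and 8 above.

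The count in WT, 21, was lower when a library was left out, but such a fit leaves 1 library in a group. Calls over all genes fell as well, so reliance of the count on particular libraries cannot be read from this. Tpm4 passed under 4 and Fhl1 under 9 of 18 alternative settings, and the calls of Actb, Myh9, Tpm1, Actn1, Tgfb1i1 and Cnn2 were each lost under 4 or 5 of them, that of Myl12a under 2 and that of Vim under 1. When every library was scaled to the same total FPKM, the split of all calls moved from 52.8% to 34.8% higher, and the split of the family from 3 higher and 18 lower to 2 and 21. Acta2, Tagln, Myl9 and Csrp2 passed under each of the 18. Marker lists moved in the same libraries: of 11 tested fibroblast markers 4 were higher and 3 lower with IL-6 in WT, and the summed macrophage markers went from between 18.9 and 19.1 to between 35.5 and 35.8 FPKM, most of it Cd14, with Adgre1 listed at 0 in all 8 libraries and Ptprc at no more than 0.00556. Their part in the result was not tested.

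**Figure D1:**
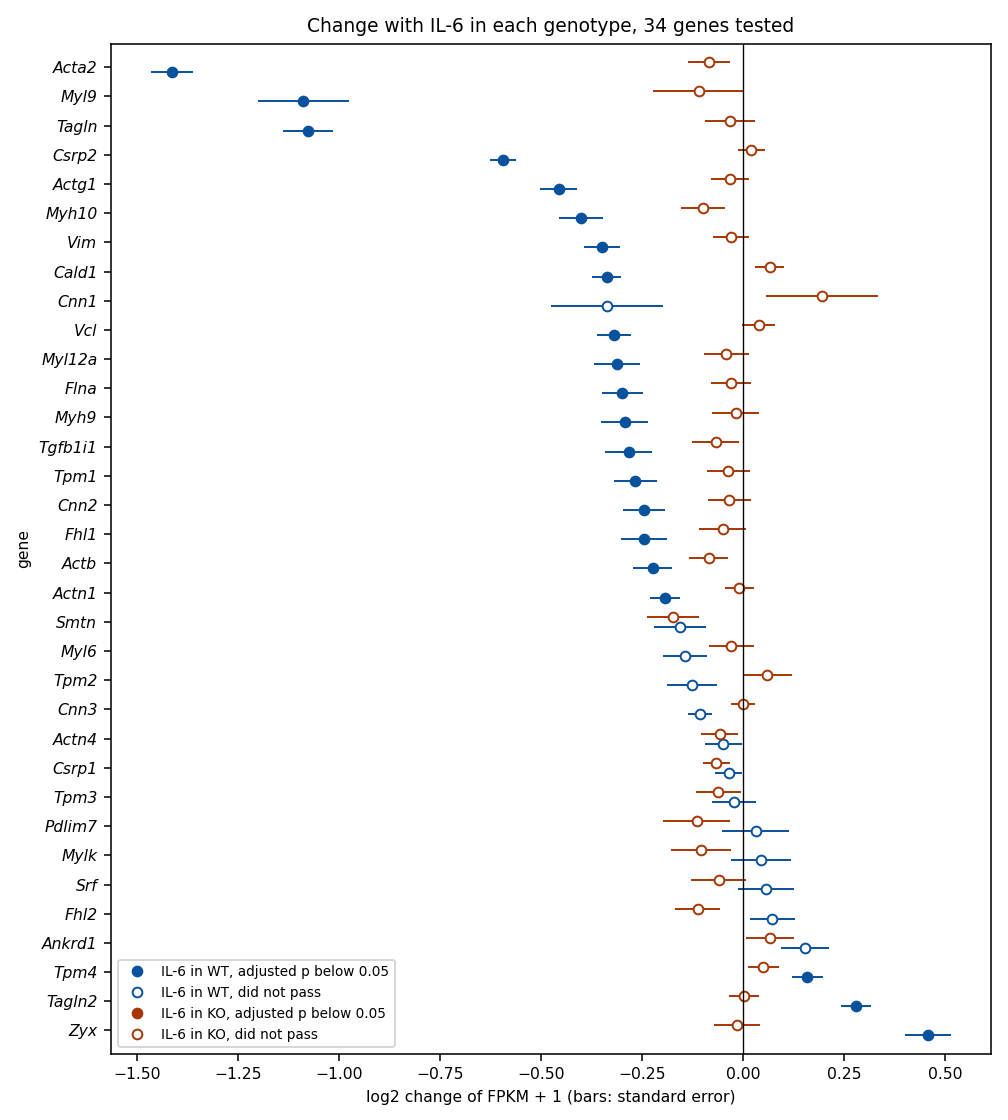
Change with IL-6 in WT (blue) and in KO (red) for the 34 genes tested, as log2 change of FPKM + 1 with its standard error, filled where the adjusted p was below 0.05. The blue points run from -1.41 (Acta2) to 0.46 (Zyx), while the red points lie between -0.17 and 0.20 and all are open.

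All 3 tested actins fell in WT. Acta2, the smooth muscle alpha-actin that marks myofibroblasts, had the steepest fall. It was measured at 46.1 and 44.6 FPKM (WT), 15.7 and 17.1 (WT + IL-6), 332 and 351 (KO) and 315 and 329 (KO + IL-6). Both WT libraries with IL-6 lay far below both without it, and the KO libraries with and without IL-6 lay close together at a level above every WT library. The change in WT was -1.41 ± 0.052 (adjusted p = 1.97e-05) and in KO -0.08 ± 0.052 (95% interval -0.21 to 0.04), and the difference between the changes was 1.33 ± 0.074 (adjusted p = 0.000365).

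Actg1, cytoplasmic gamma-actin, stood at 351 and 331 FPKM (WT), 240.3 and 257 (WT + IL-6), 845 and 843 (KO) and 810.4 and 841 (KO + IL-6). It fell in WT to 72.8% (-0.46 ± 0.047, adjusted p = 0.000930), with no overlap between treated and untreated libraries. Of the 75-base words of its transcripts 33.5% also occur in other genes, pseudogenes among them, so its level is uncertain by the share of reads assigned to those. Actb, cytoplasmic beta-actin and the highest of the actins, stood at 832 and 788 FPKM (WT), 671 and 716 (WT + IL-6), 1389 and 1419 (KO) and 1296 and 1352 (KO + IL-6). Its fall in WT was shallower, to 85.6% (-0.22 ± 0.048, adjusted p = 0.0218), and its call was lost without the first untreated WT library (adjusted p = 0.111) and the first WT library with IL-6 (0.10).

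Of the 6 tested myosin genes 4 fell in WT. Myl9, the regulatory light chain of smooth muscle, had the largest change of the 4. Its values were 42.9 and 37.3 FPKM (WT), 18.9 and 17.7 (WT + IL-6), 35.3 and 30.2 (KO) and 27.4 and 33.2 (KO + IL-6). The WT libraries with IL-6 were at less than any other library, and the other 3 groups lay nearer to each other. The change was -1.09 ± 0.11 in WT (adjusted p = 0.000979) and -0.11 ± 0.11 in KO (95% interval -0.37 to 0.15). The difference between them, 0.98 ± 0.16 (adjusted p = 0.0150), no longer passed without the first untreated WT library (0.0521), the second WT library with IL-6 (0.0593) or the second untreated KO library (0.0557). Myl12a, the non-muscle regulatory light chain, fell in WT by 0.31 on the log2 scale from 556 and 526 to 460.0 and 412 FPKM. Its exons overlap those of the near-identical Myl12b on the same strand.

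Myh10, heavy chain of non-muscle myosin IIB, was at 33.5 and 34.5 FPKM (WT), 24.6 and 26.5 (WT + IL-6), 99.1 and 96.3 (KO) and 87.5 and 95.1 (KO + IL-6). It fell in WT to 75.1% (-0.40 ± 0.054, adjusted p = 0.00324), while in KO both libraries with IL-6 were also under both without it but the change of -0.10 ± 0.054 did not pass. Myh9, heavy chain of myosin IIA, fell in WT from 116 and 108 to 90.2 and 92.3 FPKM (-0.29 ± 0.059). Myl6, the essential light chain and the most abundant gene of the family, was at 2455 and 2444 FPKM (WT), 2099 and 2342 (WT + IL-6), 1687 and 1657 (KO) and 1606 and 1672 (KO + IL-6). Its change in WT, -0.14 ± 0.056, did not pass (adjusted p = 0.135), nor did that of Mylk, the kinase that phosphorylates the regulatory light chain (0.04 ± 0.074), which was low in WT at 2.01 and 2.10 FPKM untreated and 2.06 and 2.23 with IL-6.

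**Figure D2:**
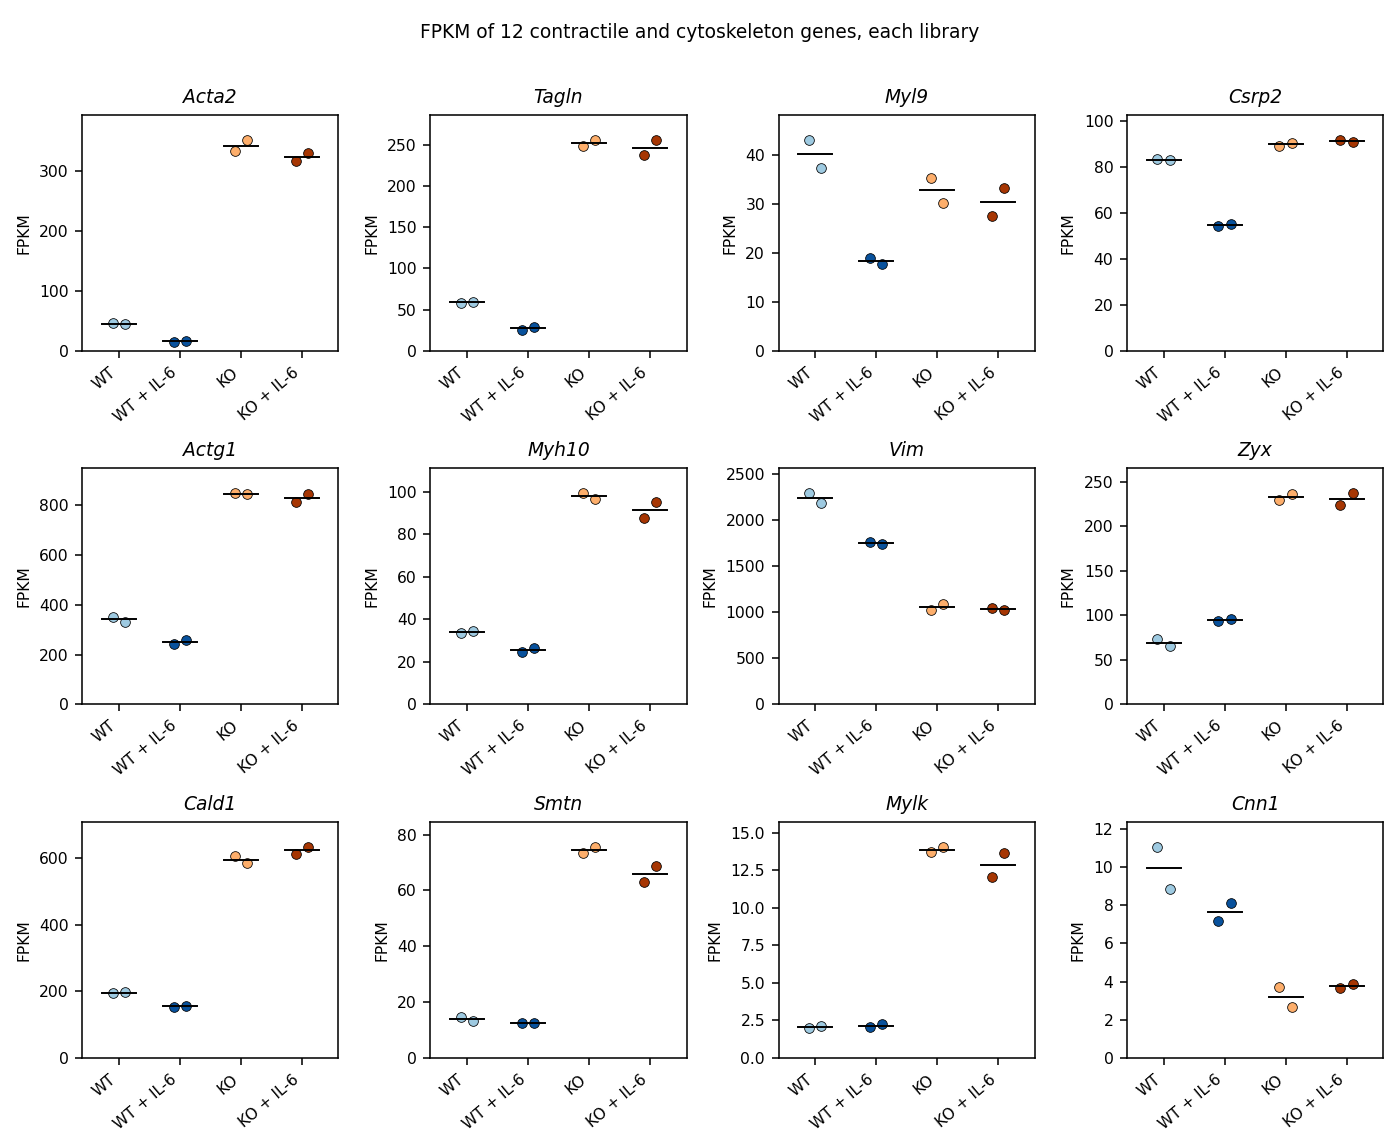
FPKM of 12 genes in each of the 8 libraries, with points for libraries and a line for the group mean, each panel on its own axis from 0. Acta2, Tagln, Myl9 and Csrp2 are lowest in the WT libraries with IL-6, whereas the KO libraries with and without IL-6 sit side by side.

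Of the 11 tested regulators of the thin filament, 4 fell and 2 rose in WT. Tagln, or SM22, an actin-binding protein of smooth muscle and myofibroblasts, was at 58.3 and 59.7 FPKM (WT), 25.8 and 29.1 (WT + IL-6), 248 and 256 (KO) and 237 and 256 (KO + IL-6). Both WT libraries with IL-6 were at about the same low level and every KO library was above every WT library. It fell in WT by 1.08 on the log2 scale (SE 0.062, adjusted p = 6.64e-05), changed by -0.03 ± 0.062 in KO and differed between the genotypes by 1.05 ± 0.087 (adjusted p = 0.00125). Exons of Tagln overlap 2 genes on the other strand, Gm48529 at a mean of 1.60 and Pcsk7 at 16.5 FPKM. Tagln2, its broadly expressed relative, rose in WT instead, from 264 and 257 to 317 and 316 FPKM (0.28 ± 0.038, adjusted p = 0.00310).

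Cald1, caldesmon, which inhibits myosin's pull on actin, was at 196 and 197 FPKM (WT), 154 and 156 (WT + IL-6), 606 and 585 (KO) and 613 and 633 (KO + IL-6). The fall in WT was to 79.0% (-0.34 ± 0.035, adjusted p = 0.000991), and in KO both libraries with IL-6 were slightly above both without it. The difference between the changes was 0.40 ± 0.050 (adjusted p = 0.00504). Tpm1, the most abundant tropomyosin, was at 847 and 799.8 FPKM (WT), 657 and 711 (WT + IL-6), 748 and 721 (KO) and 699 and 733 (KO + IL-6). It fell in WT to 83.1% (-0.27 ± 0.053, adjusted p = 0.0158), and Cnn2, a calponin, to 84.2% (-0.25 ± 0.053). Tpm4 rose by 0.16 ± 0.039, whereas Tpm2, Tpm3, Cnn3 and Smtn, with changes from -0.16 to -0.02, did not pass. Cnn1, the smooth muscle calponin, was low, at 11.1 and 8.86 FPKM (WT), 7.16 and 8.14 (WT + IL-6), 3.69 and 2.69 (KO) and 3.67 and 3.87 (KO + IL-6). Both WT libraries with IL-6 were under both without it, yet its change of -0.34 ± 0.14 did not pass (adjusted p = 0.158).

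Of 5 tested crosslinkers and adhesion proteins, 3 fell and 1 rose in WT. Flna, filamin A, which crosslinks filaments into networks, was at 126 and 125 FPKM (WT), 97.9 and 106 (WT + IL-6), 216 and 207 (KO) and 201 and 214 (KO + IL-6), and it fell in WT to 81.2% (-0.30 ± 0.050, adjusted p = 0.00790). Vcl, vinculin, which links adhesions to actin, was at 67.7 and 68.0 FPKM (WT), 52.9 and 55.5 (WT + IL-6), 138 and 131 (KO) and 137 and 139 (KO + IL-6). It fell in WT to 79.9% (-0.32 ± 0.041, adjusted p = 0.00253). A stretch of 25.5% of its exonic bases overlaps Ap3m1 on the other strand, measured at a mean of 41.7 FPKM. Actn1, an alpha-actinin, fell to 87.4% and Actn4 did not pass (-0.05 ± 0.045).

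Zyx, zyxin, a LIM protein of adhesions and stress fibres, moved the other way. It was at 73.1 and 65.3 FPKM (WT), 94.2 and 96.3 (WT + IL-6), 229 and 237 (KO) and 224 and 237 (KO + IL-6). Both WT libraries with IL-6 were above both without it, by 0.46 ± 0.057 (adjusted p = 0.00224), and the KO libraries did not separate by treatment. The difference between the changes, -0.47 ± 0.081 (adjusted p = 0.0184), was the most negative of the family. Its call was lost without either WT library with IL-6 (0.0580 and 0.0668), either untreated KO library (0.0540 and 0.0755) or the first KO library with IL-6 (0.0754), and with no filter (0.0662).

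Of 6 tested LIM genes 3 fell in WT. Csrp2, a cysteine- and glycine-rich LIM protein of smooth muscle, was at 83.4 and 83.2 FPKM (WT), 54.3 and 55.4 (WT + IL-6), 89.4 and 90.7 (KO) and 91.8 and 90.9 (KO + IL-6). The WT libraries with IL-6 stood apart from the other 6, which lay between 83.2 and 91.8 FPKM. The fall in WT was -0.59 ± 0.033 (adjusted p = 5.78e-05), and the difference between the changes 0.62 ± 0.046 (adjusted p = 0.000865). Its relative Csrp1, the highest of the LIM genes, was at 216 and 216 FPKM (WT), 209.7 and 211 (WT + IL-6), 291 and 285 (KO) and 270.0 and 279 (KO + IL-6), and its change in WT did not pass (-0.04 ± 0.033). Tgfb1i1, or Hic-5, an adhesion adaptor, fell in WT by 0.28 ± 0.058 from 34.3 and 31.4 to 26.3 and 27.3 FPKM. Fhl1 was at 11.6 and 11.01 FPKM (WT), 9.70 and 9.07 (WT + IL-6), 38.6 and 39.8 (KO) and 36.4 and 39.3 (KO + IL-6) and fell in WT by 0.25 ± 0.058. Fhl2 (0.07 ± 0.055) and Pdlim7 (0.03 ± 0.083) did not pass.

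Vim, vimentin, the intermediate filament protein of mesenchymal cells, was at 2288 and 2183 FPKM (WT), 1765 and 1746 (WT + IL-6), 1022 and 1088 (KO) and 1046 and 1021 (KO + IL-6). It fell in WT to 78.5% (-0.35 ± 0.045, adjusted p = 0.00250). Among the transcriptional regulators, Srf was at 18.2 and 16.6 FPKM (WT), 18.8 and 17.5 (WT + IL-6), 25.6 and 27.7 (KO) and 24.6 and 26.5 (KO + IL-6). Its WT libraries with and without IL-6 overlapped, and its change was 0.06 ± 0.069 (95% interval -0.10 to 0.22). Ankrd1, a nuclear ankyrin-repeat protein known as a target of the Hippo pathway effectors, was at 13.2 and 12.7 FPKM (WT), 14.4 and 14.6 (WT + IL-6), 29.9 and 27.3 (KO) and 31.2 and 28.9 (KO + IL-6). Its change in WT, 0.15 ± 0.060, did not pass (adjusted p = 0.139). Myocd, myocardin, the cofactor of SRF in smooth muscle, was at 0.0617 and 0.0996 FPKM (WT), 0.132 and 0.101 (WT + IL-6), and listed at 0 in all 4 KO libraries.

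The test of the difference between the genotypes' IL-6 changes, taken as the change in KO minus that in WT, called 10 of 34 genes. Positive differences passed for Acta2, Tagln, Myl9, Csrp2, Actg1, Cald1, Vcl and Vim, all lower with IL-6 in WT, and negative ones for Zyx and Tagln2. Over all genes 6.06% passed, 2.54% positive and 3.52% negative. With equal totals the split of all calls moved from 41.9% to 55.1% positive, and that of the family from 8 and 2 to 13 and 2. For the 24 others the difference did not pass. Among them Actb, Flna, Myh9, Myh10, Myl12a, Tpm1, Cnn2, Actn1, Tgfb1i1 and Fhl1 had a fall that passed in WT and not in KO. Those falls were not shown to differ between the genotypes. The count was 6 without the second WT library with IL-6, 6 without the first and 4 without the second untreated KO library, 6 without the first KO library with IL-6, and 5 with no filter on low values. Of 17 alternative settings Vim passed under 5, Tagln2 under 6, Zyx under 11, Vcl under 12, and Actg1 and Myl9 under 13, while Acta2, Tagln, Csrp2 and Cald1 passed under all of them.

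The 6 genes under the filter were smooth or striated muscle genes. Actg2, enteric smooth muscle actin, was at 0.0466 to 0.380 FPKM over the 8 libraries, Myh11, smooth muscle myosin heavy chain, at 0.0239 to 0.118, and Synpo2, an actin-bundling protein, at 0.158 to 0.416. Des, desmin, was at 0.00809 to 0.0382 FPKM in WT and 0.366 to 0.582 in KO. Lmod1, leiomodin, which nucleates actin filaments, was at 0.680 and 0.758 FPKM (WT), 0.270 and 0.338 (WT + IL-6) and at most 0.0794 in KO. In a fit with no filter (27454 genes, 5.98% called for IL-6 in WT), Lmod1 (-0.40, adjusted p = 0.00890) and Synpo2 (-0.22, adjusted p = 0.0340) passed as lower with IL-6 in WT. With IL-6 in KO 0 of the 6 passed, but only 0.0255% of all genes did, so this 0 is not particular to them. Between genotypes Lmod1 (-0.70) and Myocd (-0.11) were lower and Des higher (0.60) in untreated KO in that fit, where 40.2% of genes passed. With IL-6, Lmod1 (-0.31) and Myocd (-0.16) were lower and Des (0.43) and Synpo2 (0.20) higher in KO, where 40% of genes passed.

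Several of these genes make muscle and non-muscle transcripts. Of 310 annotated transcripts of the family, 148 passed the filter. With IL-6 in WT 1 passed as higher and 19 as lower (2.86% of 33179 transcripts passed), in KO 0 passed (0.00603%), and the difference passed for 5 positive and 1 negative (0.747%). Cufflinks divides fragments between transcripts by a model, so the levels of transcripts of a gene depend on each other.

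Tpm1-216, whose annotated start is the outer one at position 67049406 of chromosome 9, was at 415 and 396 FPKM (WT) and 280.1 and 282 (WT + IL-6). It fell by 0.53 on the log2 scale (adjusted p = 0.00270). Tpm1-211, which begins at the inner start at 67043802, was at 161 and 159 FPKM untreated and 182 and 205 with IL-6, and its change of 0.27 did not pass (adjusted p = 0.0994). Of the FPKM of this pair Tpm1-216 held 72.1 and 71.4% (WT), 60.6 and 57.9% (WT + IL-6), 78.4 and 78.1% (KO) and 75.2 and 77.1% (KO + IL-6). The difference between the IL-6 changes of Tpm1-216 was 0.44 (adjusted p = 0.0371), whereas that of Tpm1 as a gene had not passed.

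A like division was seen for a pair of Cald1 transcripts with different starts. Other annotated Cald1 transcripts begin near these starts, and levels were not summed by start. Cald1-204, from the outer start at 34598565 of chromosome 6, was at 61.6 and 56.5 FPKM (WT), 41.8 and 37.3 (WT + IL-6), 242 and 248 (KO) and 240.3 and 233 (KO + IL-6). It fell with IL-6 in WT by 0.57 (adjusted p = 0.0126). Cald1-203, from the inner start at 34709442, was at 50.2 and 49.6 FPKM (WT), 57.3 and 59.3 (WT + IL-6), 61.5 and 57.8 (KO) and 49.5 and 51.4 (KO + IL-6). The KO and WT libraries thus stood far apart for Cald1-204 and close together for Cald1-203. The inner transcript's change in WT did not pass (0.22, adjusted p = 0.0673), and its difference between the IL-6 changes was the 1 negative call (-0.46, adjusted p = 0.0472). That of Cald1-204 was 0.52 and did not pass (adjusted p = 0.0922).

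**Figure D3:**
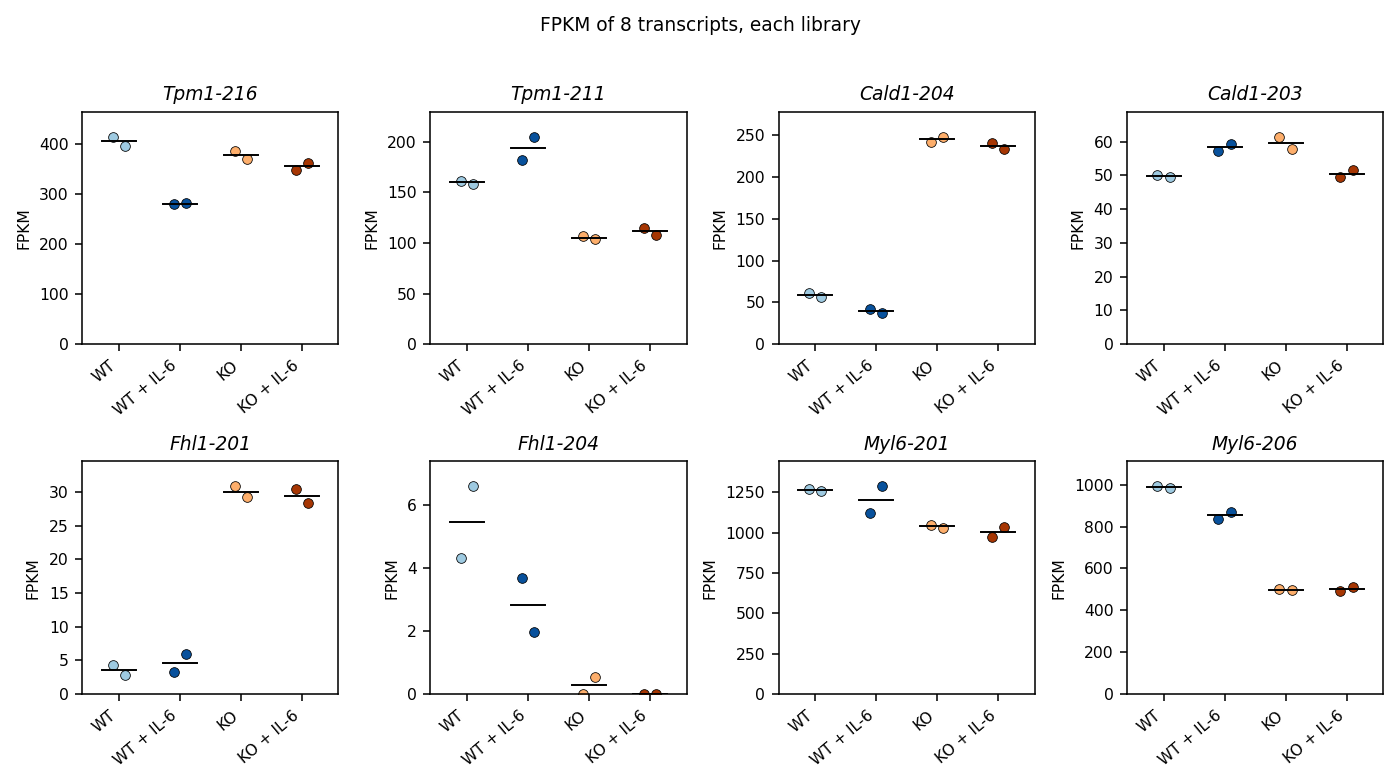
FPKM of 8 transcripts of Tpm1, Cald1, Fhl1 and Myl6 in each library, with a line at the group mean. Tpm1-216 and Cald1-204 are lowest in WT with IL-6, Tpm1-211 and Cald1-203 are not, and Fhl1-201 is near 30 FPKM in KO where Fhl1-204 is near 0.

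Between genotypes 56 of the 148 transcripts were higher and 20 lower in untreated KO (41.1% of all transcripts passed), and 63 higher and 22 lower with IL-6 (43.1%). Fhl1-201 was at 4.34 and 2.88 FPKM (WT) and 30.9 and 29.2 (KO), while Fhl1-204, which starts further downstream, was at 4.32 and 6.61 and at 0 and 0.538. By the model's division, the higher Fhl1 level in KO lay mostly with Fhl1-201. Of the pair Fhl1-204 held 49.9 and 69.7% (WT), 52.9 and 24.7% (WT + IL-6) and at most 1.81% in KO. The division was thus unsteady among the WT libraries, where both levels were low. The pair of main Myl6 transcripts, which differ by 1 exon, were both lower in untreated KO, Myl6-206 by 0.99 from 992 and 984 to 500.0 and 495 FPKM, and Myl6-201 by 0.29 from 1272 and 1261 to 1049 and 1029.

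Acta2, Tagln and Myl9 each held a smaller share of their protein family with IL-6 in WT, where a family holds only genes among the 40. Acta2 held 3.75 and 3.83% (WT), 1.69 and 1.73% (WT + IL-6), 12.9 and 13.4% (KO) and 13.0 and 13.0% (KO + IL-6) of summed actin FPKM. Tagln held 18.1 and 18.9% (WT), 7.54 and 8.44% (WT + IL-6), 47.0 and 48.1% (KO) and 46.7 and 47.2% (KO + IL-6) of the transgelins. The WT and KO libraries did not overlap in either share. Of the summed FPKM of the regulatory light chains Myl9 and Myl12a, Myl9 went from 7.17 and 6.63% to 3.95 and 4.12% in WT. It stood between 3.71 and 4.65% in KO. Myl12b, at a mean of 114 FPKM, is outside the list and was not counted. Myh10 held 22.4 and 24.2% of the heavy chains in untreated WT, 21.4 and 22.3% with IL-6 and 40.8 to 42.9% in the 4 KO libraries. Together the 40 genes held 1.87 and 1.83% (WT), 1.53 and 1.57% (WT + IL-6), 2.03 and 2.03% (KO) and 1.96 and 1.98% (KO + IL-6) of all FPKM. These shares are a description and were not tested.

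**Figure D4:**
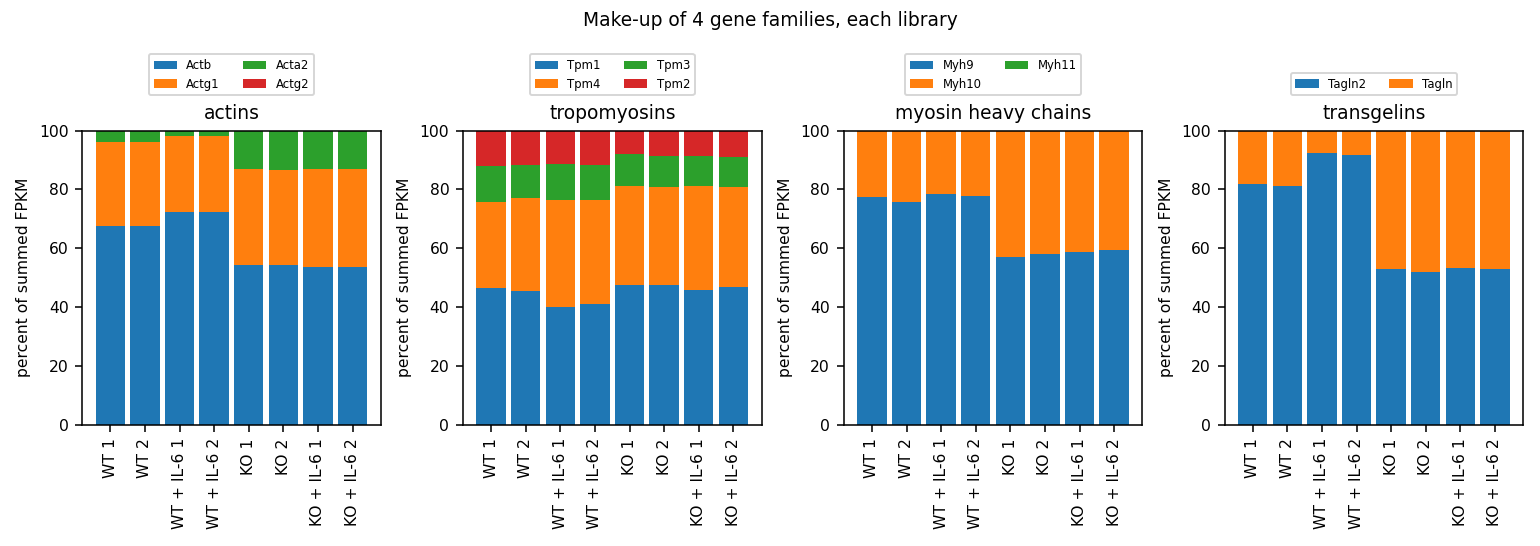
Share of each gene in the summed FPKM of its family, as stacked bars for each library. Acta2 is a thin band of 1.69 to 3.83% of the actins in WT and 12.9 to 13.4% in KO, and Tagln holds 7.54 to 18.9% of the transgelins in WT and 46.7 to 48.1% in KO.

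Most of the 34 tested genes were higher in KO than in WT, but the thin-filament regulators were divided. Without IL-6, 22 of 34 genes were higher in KO, 7 lower and 5 did not pass, in a comparison in which 71.0% of all genes passed, 36.4% as higher and 34.5% as lower. With IL-6, 23 were higher, 9 lower and 2 did not pass, beside 71.7% of all genes, 36.9% higher and 34.8% lower. The median difference of the 34 was 0.42 without and 0.52 with IL-6, beside 0.007 and 0.01 over all genes. These comparisons use the same WT libraries as the IL-6 comparison in WT, so their values for a gene are not independent of it.

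The KO libraries also differed from WT in markers of cell type. Of 12 mesothelial markers 12 were higher in KO, beside 36.4% of all genes without IL-6. Apart from Msln and Krt19, each stayed under 1 FPKM in every WT library and so entered the test only through KO. That filter set their direction, so the count is no separate result. The summed level of the 12 was 48.5 to 53.8 FPKM (WT), 39.5 to 42.0 (WT + IL-6), 1998 to 2029.9 (KO) and 1973 to 1982 (KO + IL-6). Wt1, Lrrn4 and Muc16 were listed at 0 in all WT libraries and stood at 106 to 114, 164 to 181 and 4.42 to 4.94 FPKM in KO. Fibroblast markers were present in both genotypes, with 4 of 11 tested higher and 6 lower in untreated KO, beside 36.4% and 34.5% of all genes. Of the lower ones Thy1 and Lum stayed under 1 FPKM in every KO library and entered the test only through WT. The summed level was 7301 to 7384 FPKM in untreated WT and 5381 to 5426 in untreated KO. That order rested on S100a4, at 4417 to 5099.7 FPKM in WT and 1013 to 1149 in KO, and without it the sum was 2285 and 2350.1 FPKM in untreated WT and 4331 and 4368 in untreated KO. Lower in KO were also Postn, at 472 to 520 FPKM in WT and 7.75 to 10.4 in KO, and Pdgfra, at 33.1 to 52.4 and 7.62 to 8.85. Higher in KO were Fn1, at 160.2 to 254 FPKM in WT and 1103 to 1238 in KO, Dcn, at 157 to 465 and 783 to 815, Col3a1, at 197 to 309 and 828 to 878, and Col1a1, at 418 to 565 and 912 to 1059. Skeletal and cardiac muscle markers summed to 4.18 to 5.33 FPKM in untreated WT and 27.0 to 29.9 in untreated KO, mainly Tnnt2 and Tnni1, with Myog listed at 0 in all libraries and Myod1 at no more than 0.0147. Endothelial markers summed to 0.232 to 0.300 FPKM in untreated WT and 10.9 to 11.2 in untreated KO, where Tek stood at 8.74 and 8.62, with Pecam1 at no more than 0.105 and Cdh5 at no more than 0.0181 in any library. Macrophage markers summed to 3.77 to 3.84 FPKM in untreated KO. In these bulk libraries fewer cells of a type and less RNA per cell cannot be told apart, and the part of these marker differences in the results on contractile genes was not tested.

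A list of 12 pericyte and vascular smooth muscle markers, beside which the smooth muscle type genes may be read, summed to 36.7 to 38.1 FPKM (WT), 35.0 to 35.8 (WT + IL-6), 19.9 to 20.4 (KO) and 19.5 to 20.2 (KO + IL-6). Of its 4 tested genes 2 were higher and 1 lower with IL-6 in WT, beside 8.30% and 7.41% of all genes. In untreated KO 1 was higher and 3 lower, beside 36.4% and 34.5% of all genes. Those 3, Cspg4, Mustn1 and Ndufa4l2, stayed under 1 FPKM in every KO library and entered the test only through WT. That filter set their direction. Abcc9, Kcnmb1 and Higd1b were listed at 0 in all 8 libraries and Rgs5 was at no more than 0.347 FPKM. Cspg4, the most abundant of the list in WT, was at 23.8 and 24.9 FPKM (WT) and 18.0 and 18.3 (WT + IL-6), and at no more than 0.1002 in KO. Their part in the result was not tested.

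Acta2 had the largest genotype difference of the 34. KO means were 7.53 times the WT mean without IL-6 (2.88 ± 0.052, adjusted p = 5.93e-09) and 19.6 times under IL-6 (4.21 ± 0.052, adjusted p = 1.10e-09). The lowest KO library, at 315 FPKM, was far above the highest WT library, at 46.1. Actg1 was 2.47 and 3.32 times as high in KO, and Actb 1.73 and 1.91 times, so the 3 tested actins stood in the same direction.

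Of the motor genes, Mylk was 6.76 times as high in KO without IL-6 (2.28 ± 0.074, adjusted p = 1.22e-07) and 5.99 times under IL-6, at 13.7 and 14.0 and 12.1 and 13.6 FPKM. Myh10 was 2.87 and 3.57 times as high, and Myh9 1.18 and 1.43 times. Myl6 was lower in KO, at 68.3% of WT without IL-6 (-0.55 ± 0.056) and 73.8% with it. Myl9 did not pass without IL-6 (-0.29 ± 0.11, adjusted p = 0.0517) and was higher in KO under IL-6 (0.69 ± 0.11, adjusted p = 0.000901).

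**Figure D5:**
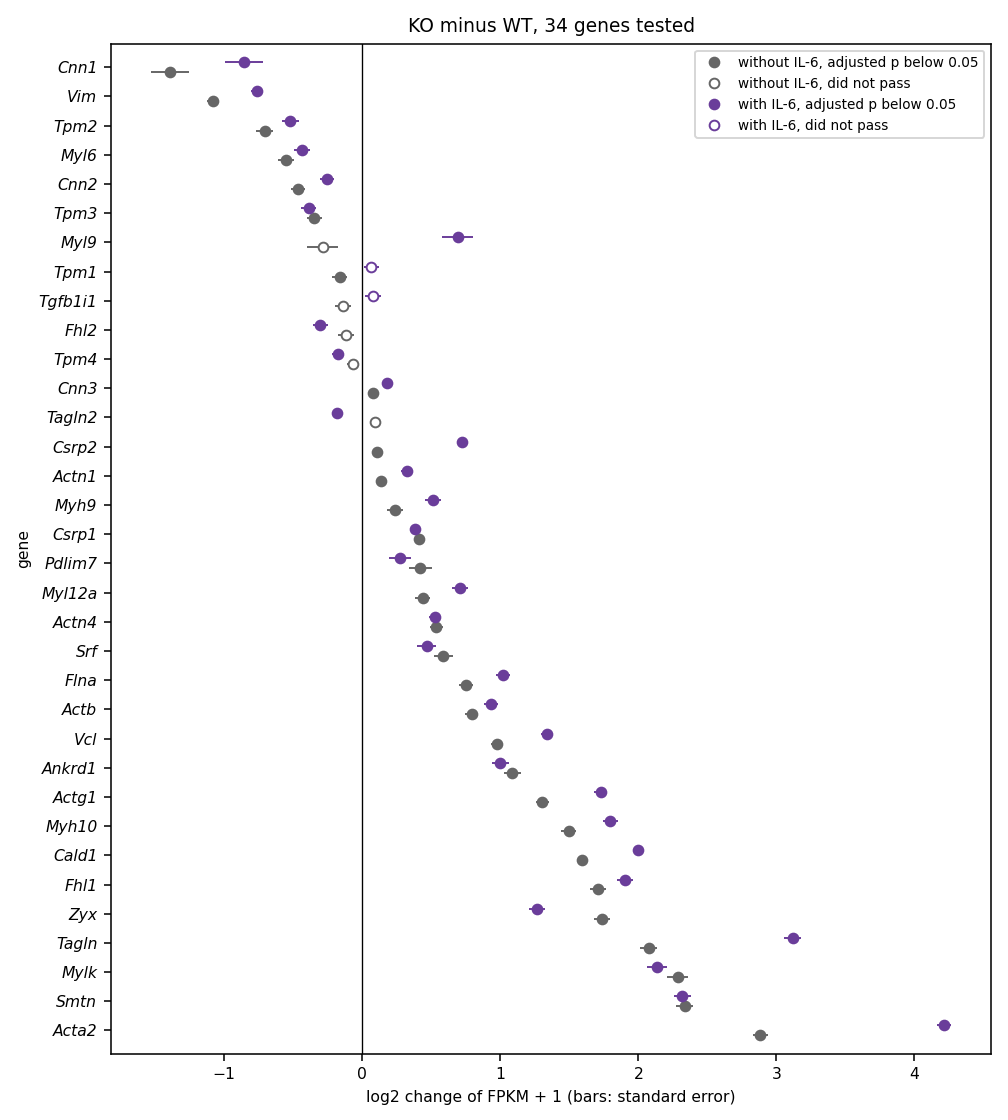
KO minus WT for the 34 genes tested, without IL-6 (grey) and with it (purple), as log2 change of FPKM + 1 with its standard error, filled where the adjusted p was below 0.05. Values run from -1.39 (Cnn1) to 4.21 (Acta2), and Acta2, Tagln, Csrp2 and Myl9 lie further to the right with IL-6 than without.

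Smtn, smoothelin, a smooth muscle cytoskeletal protein, was at 14.8 and 13.2 FPKM (WT), 12.4 and 12.4 (WT + IL-6), 73.4 and 75.6 (KO) and 63.1 and 68.9 (KO + IL-6), or 5.33 times as high in KO without IL-6 (2.34 ± 0.064, adjusted p = 4.78e-08). The 4 KO libraries lay between 63.1 and 75.6 FPKM and the 4 WT libraries between 12.4 and 14.8. Tagln was 4.27 times as high in KO without IL-6 and 8.97 times with it (2.07 ± 0.062 and 3.12 ± 0.062), and Cald1 3.03 and 4.02 times. In contrast Cnn1, also a smooth muscle gene, was at 32.0% of WT without IL-6 (-1.39 ± 0.14, adjusted p = 6.08e-05) and 49.2% under IL-6. Tpm2 (61.1% and 69.6%), Tpm3 (78.4% and 76.4%) and Cnn2 (72.2% and 83.7%) were lower in KO in both comparisons. Tpm1 passed as lower without IL-6 (-0.16 ± 0.053) and did not pass with it (0.07 ± 0.053). Tpm4 and Tagln2 passed as lower with IL-6 (-0.18 ± 0.039 and -0.18 ± 0.038), and with quantile normalization neither passed. In all, 4 of the 11 tested thin-filament regulators were higher and 5 lower in KO without IL-6, and 4 and 6 with it.

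All 5 tested crosslinkers and adhesion proteins were higher in KO, beside 36.4% of all genes without IL-6 and 36.9% with it. Zyx was 3.37 times as high without IL-6 (1.74 ± 0.057) and 2.42 times with it (1.27 ± 0.057). Vcl was 1.98 and 2.55 times as high, Flna 1.69 and 2.04 times, Actn4 1.45 and 1.44 times, and Actn1 1.101 and 1.25 times. Of the LIM genes Fhl1 was 3.47 and 4.03 times as high in KO, Csrp1 1.33 and 1.30 times, and Csrp2 1.08 and 1.67 times. Fhl2 passed as lower in KO with IL-6 (-0.30 ± 0.055). Vim was at 47.2% of WT without IL-6 (-1.08 ± 0.045, adjusted p = 4.48e-07) and 58.9% under IL-6. Srf was 1.53 and 1.41 times as high in KO, and Ankrd1 2.21 and 2.07 times. The call of Cnn3 without IL-6 (0.08 ± 0.030, adjusted p = 0.0499) passed under 4 of 18 alternative settings. Without IL-6 the calls of Tpm1, Csrp2, Actn1 and Myh9 were lost under 4, 3, 2 and 1 of them, and with IL-6 those of Pdlim7, Tpm4 and Tagln2 under 4, 2 and 1.

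Genes that act beside the family were read from lists. Of 31 tested genes of actin filament turnover 3 were higher and 6 lower with IL-6 in WT, beside 8.30% and 7.41% of all genes. The thymosin gene Tmsb4x, whose product holds actin monomers, went from 235 to 176 FPKM (-0.41 ± 0.047), the depolymerizing factor gene Dstn from 147 to 128 FPKM (-0.20 ± 0.035), and Enah, which aids filament growth, rose from 23.9 to 29.5 FPKM (0.29 ± 0.052). Of 29 tested focal adhesion and stress-fibre adaptors 1 was higher and 8 lower in the same comparison, with the smallest p for the actin-binding LIM protein gene Ablim1 (14.0 to 8.82 FPKM, -0.61 ± 0.067), the supervillin gene Svil (11.4 to 7.52 FPKM, -0.54 ± 0.071) and Pdlim5 (36.3 to 28.2 FPKM, -0.36 ± 0.048). With IL-6 in KO 0 genes of both lists passed, beside 0.0219% of all genes. In untreated KO, 14 genes of filament turnover were higher and 9 lower than in WT, and 16 and 8 of the adaptors, beside 36.4% and 34.5% of all genes. Tmsb4x stood at 2359 FPKM in untreated KO against 235 in untreated WT.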

How the data were processed

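RNA from 8 MEF libraries was purified with RNeasy columns and a stranded TruSeq mRNA kit made the libraries, as the labels' protocols state. HISAT2 and Cufflinks 2.2.1 and the build GRCm38.p6 are named in the submitters' processing notes. The authors deposited FPKM per transcript, and fragment counts, the annotation and use of strand in counting are not given in the sources used here. Values of 142869 transcripts were summed to 55358 genes by the name before the final hyphen and number. Differences were tested on log2(FPKM + 1) with limma 3.58.1 in R 4.3.3, with 1 mean per group over all 8 libraries, a trend on intensity, and p-values adjusted by Benjamini-Hochberg over 13693 genes. The same model was run on 33179 transcripts. The fit was tested on simulated data. The 40 genes, the companion lists and the marker lists were chosen with earlier results of these data known. Values in every library are given for members that passed with a log2 change of at least 0.5 with IL-6 or in the difference, or of at least 1 between genotypes, for the highest member of each role, and for Srf and Myocd. Results of 1 companion list are not reported here. Up to 3 called genes of each other companion list with the smallest p for IL-6 in WT are named. Exons, starts and shared 75-base words came from GENCODE M21, in which 97.11% of transcript names were found. Promoter windows came from a RefSeq table on GRCm38.p6. Implied depth rests on whole steps in low values, where 93.9 to 95.5% lay within 0.1 of a whole number. Alternatives were other scalings, pseudocounts, filters, a replicate block, no trend, only the groups compared, and each library left out. Protein sequences were not used here.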

Additional observations from a re-analysis of the deposited data

Results flagged for a closer look

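The IL-6 change differed between the genotypes, by the limma test of the difference itself, for 10 of the 34 genes. KO minus WT, it was 1.33 for Acta2 (adjusted p = 0.000365), 1.046 for Tagln (0.00125), 0.9783 for Myl9 (0.0150), 0.6155 for Csrp2 (0.000865) and 0.4246 for Actg1 (0.0127). It was 0.4038 for Cald1 (adjusted p = 0.00504), 0.3581 for Vcl (0.0149) and 0.3189 for Vim (0.0317). It was negative for Zyx at -0.4725 (adjusted p = 0.0184) and Tagln2 at -0.2775 (0.0276).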

How the results depend on the processing

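Of 34 genes, 21 passed for IL-6 in WT. This count was 12 with only the groups compared and 12 to 20 with each library left out. Scaling gave 21 to 23. The difference between the IL-6 changes, called for 10 genes, gave 5 with no filter, 12 to 15 under the scalings and 4 to 7 with each library left out. Over all genes, IL-6 in WT called 2150, against 938 with only the groups compared and 1165 to 1774 with each library left out. The difference called 830, against 521 with no filter and 383 to 523. The cause was not tested. Of the 34 genes, 0 passed for IL-6 in KO under every setting tried, and the counts of the 34 for both genotype comparisons stayed within 1.5 times. Over all genes IL-6 in KO called 3, against 7 with no filter, 0 with only the groups compared and 0 to 4 with each library left out. Of the 10 calls of the difference, 6 were lost under some alternatives: Vim under 12 of 17, Tagln2 under 11, Zyx under 6, Vcl under 5, and Actg1 and Myl9 under 4 each. Of the 21 calls for IL-6 in WT, 10 were lost under some alternatives, Tpm4 under 14 of 18 and Fhl1 under 9. Of the genes called in these 2 comparisons, 0 turned direction. Same-numbered libraries did not deviate together (r from -0.0973 to 0.0549). With a replicate block 19 genes passed for IL-6 in WT, 0 in KO, 28 and 32 between genotypes without and with IL-6, and 8 for the difference. Depth limits low genes such as Myh11 and Myocd.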
